A study of Mus musculus with 10 samples.

Results

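The interaction of ligand and time asks, for each gene, whether the change between 1 h and 3 h of stimulation differed between mouse macrophages given AmTARS and those given Pam3CSK4. It was computed per gene as the 3 h minus 1 h change with AmTARS minus the 3 h minus 1 h change with Pam3CSK4, on the log2(CPM + 1) scale. CPM is the read count of a gene relative to the scaled size of its library. Every gene whose average over the 10 libraries reached 1 CPM was a member, which gave 11407 of the 11617 genes listed, and 8 of the 10 libraries entered the contrast. A negative value means that the level moved up less, or down more, with AmTARS than with Pam3CSK4, and a positive value the reverse. No measured difference was used to choose the genes.

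The cells were bone-marrow-derived macrophages of C57BL/6 mice, with an age of 6 weeks in one label and 7 weeks in another. All groups grew with 50 ng/ml GM-CSF, a myeloid growth factor, in medium that held 10% serum, and were treated in wells of 2 ml. The groups were AmTARS for 1 h, AmTARS for 3 h, Pam3CSK4 at 10 ng/ml for 1 h, Pam3CSK4 for 3 h, and untreated cells with no time label, each with 2 libraries. For AmTARS the label writes 0.5 mm, a unit that cannot be set against the Pam3CSK4 dose, so the contrast compares the treatments as given. AmTARS carries the name of a threonyl-tRNA synthetase, an enzyme that charges tRNA, from Akkermansia muciniphila, a gut bacterium. Pam3CSK4 is a synthetic triacylated lipopeptide recognised by the receptor pair of Tlr2 and Tlr1.

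As background, signals from Tlr2 run through the adaptor Myd88 and kinases of the Irak family to NF-kB and the MAP kinases. Target genes are induced in waves: immediate-early transcription factors and some cytokines come first and fade, while chemokines, enzymes and receptors that need new chromatin or protein synthesis come later. Many early targets encode inhibitors of the pathway, so the level at any time reflects induction, mRNA decay and feedback together.

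Reads in the listed genes numbered 27398791 to 37559810 per library. The log2 values of the paired libraries of a group correlated at 0.9978 to 0.9984 across genes. Their read counts differed by more than sampling noise in every group, with a chi-square per degree of freedom of 4.21 for AmTARS 1 h, 4.32 for AmTARS 3 h, 4.63 for Pam3CSK4 1 h, 7.5 for Pam3CSK4 3 h and 3.58 for untreated cells. The labels do not tell whether these libraries came from separate cultures or animals, so p-values may measure technical spread alone. All 8 macrophage markers looked for were listed, with summed levels of 50533 to 53715 CPM with AmTARS, 51782 to 53970 CPM with Pam3CSK4 and 49274 to 50987 CPM in untreated libraries. In bulk RNA, fewer cells of a type and less RNA per cell cannot be told apart.

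Most of the interaction lay in genes that rose further between the times with Pam3CSK4 than with AmTARS. Of 11407 genes tested, 1049 had an adjusted p below 0.05 in limma with Benjamini-Hochberg adjustment, which is 9.20% of them. The interaction was negative in 651 genes, 5.71% of those tested, and positive in 398, 3.49% of those tested. It reached 2-fold in 65 negative and 3 positive genes, and 4-fold in 2 negative genes. The median size among the 1049 genes was 0.43 on the log2 scale, against 0.11 over all genes tested. The signed median over all genes was 0.01. Without AmTARS 3 h replicate 1 the count was 675.

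Few genes changed between the times with AmTARS and many with Pam3CSK4. With AmTARS, 206 genes were higher at 3 h than at 1 h (1.81% of those tested) and 65 were lower (0.570%), and none of these 271 changes reached 2-fold. With Pam3CSK4, 1851 genes were higher at 3 h (16.2%) and 1746 were lower (15.3%). Of the Pam3CSK4 changes, 128 rises and 11 falls reached 2-fold. The AmTARS count depended on single libraries: it was 95 without AmTARS 1 h replicate 2, 158 without AmTARS 1 h replicate 3, 147 without AmTARS 3 h replicate 1 and 89 without AmTARS 3 h replicate 3. The Pam3CSK4 count of 3597 was 2381 without Pam3CSK4 1 h replicate 1.

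**Figure D1:**
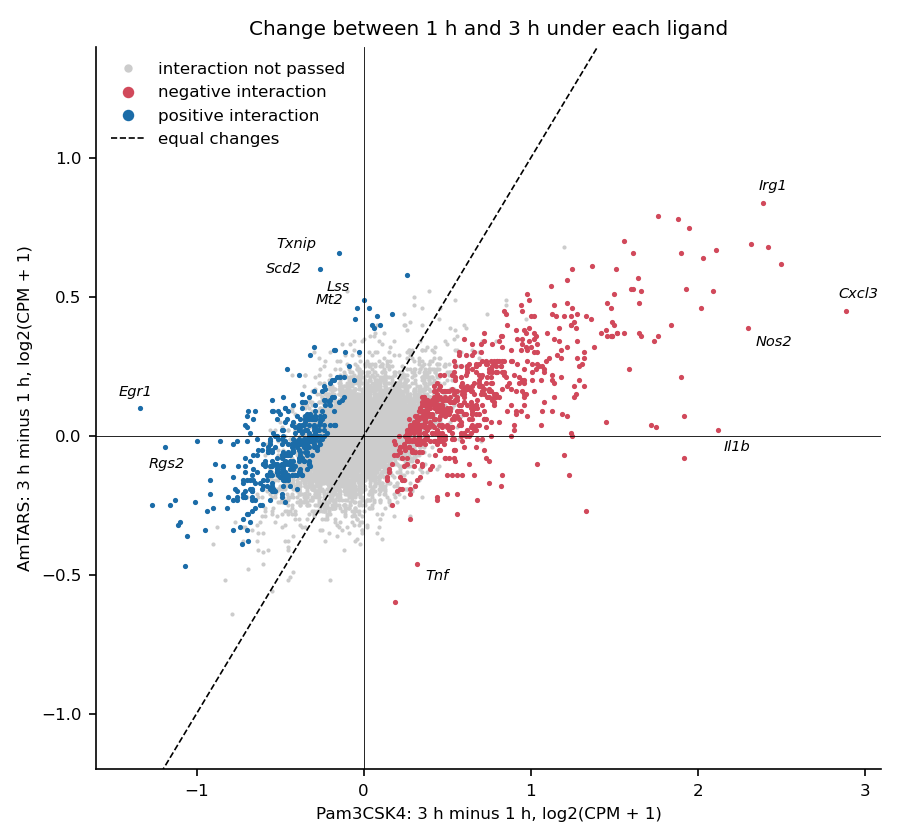
Change between 1 h and 3 h with AmTARS (vertical axis) against the change with Pam3CSK4 (horizontal axis), both in log2(CPM + 1), with 1 point per gene for the 11407 genes tested. Blue points have a positive interaction (398), red points a negative one (651) and grey points did not pass. Red points spread along the horizontal axis to a Pam3CSK4 change of 2.89 (Cxcl3), while the AmTARS changes of all coloured points stay below 1.

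Across genes, which are not independent replicates, the changes under AmTARS and Pam3CSK4 had a Pearson correlation of 0.57 and a Spearman correlation of 0.5. The change with Pam3CSK4 was the larger one in size in 1018 of the 1049 genes (97.0%). Among the 651 negative genes, 502 rose between the times with Pam3CSK4 while the AmTARS change did not pass, with median changes of 0.08 with AmTARS and 0.51 with Pam3CSK4. A further 139 rose with both ligands, with medians of 0.36 with AmTARS and 1.02 with Pam3CSK4. Of the 398 positive genes, 350 fell with Pam3CSK4 while the AmTARS change did not pass, with medians of -0.04 with AmTARS and -0.44 with Pam3CSK4. A failed test with AmTARS does not show that a level was constant there. The distance between the ligands was larger at 3 h than at 1 h in 992 of the 1049 genes and larger at 1 h in 57.

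The same libraries that gave the test can also be set against each other singly, as a description with no test. The 4 differences between a 3 h and a 1 h AmTARS library lay on one side of the 4 differences for Pam3CSK4 in 3861 of the 11407 genes tested. All 1049 genes that passed were among these, as the choice by p in these libraries makes likely.

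Chemokine genes, whose products draw neutrophils and monocytes, gave the largest single interaction. Of 21 chemokines on the list 16 were tested, and the interaction was negative in 12 and did not pass in 4. Thus 75.0% passed, against 9.20% of all genes, and the median was -0.66 against 0.01 over all genes. Here and below, such shares describe the lists and are not tests of them. With Pam3CSK4, 13 of the 16 rose between the times, and with AmTARS 2 did, Cxcl3 and Cxcl10.

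Cxcl3, which encodes a neutrophil attractant, lies on mouse chromosome 5 at 90786103 to 90789600 in build mm10. Its levels with AmTARS were 33.3 and 30.6 CPM at 1 h and 45.3 and 42.9 CPM at 3 h. With Pam3CSK4 they were 35.7 and 34.7 CPM at 1 h and 219 and 326 CPM at 3 h, and untreated libraries held 23.6 and 24.3 CPM. The ligands were close at 1 h, and at 3 h both Pam3CSK4 libraries stood far above both AmTARS libraries. The ratio of mean levels at 3 h over 1 h was 1.38 with AmTARS and 7.73 with Pam3CSK4. The interaction was -2.44 (SE 0.15, adjusted p = 4.52e-09 in limma).

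Cxcl1 and Cxcl2, neighbours of Cxcl3 on chromosome 5 (90891241 to 90893115 and 90903871 to 90905938) that also encode neutrophil attractants, had another course. Cxcl1 held 22.3 and 22.8 CPM at 1 h and 22.5 and 24.1 CPM at 3 h with AmTARS, against 57.0 and 51.2 CPM at 1 h and 149 and 219 CPM at 3 h with Pam3CSK4. Cxcl2 held 43.7 and 49.6 CPM at 1 h and 47.1 and 46.7 CPM at 3 h with AmTARS, against 129 and 128 CPM at 1 h and 252 and 369 CPM at 3 h with Pam3CSK4. Here the ligands were already apart at 1 h, and the AmTARS libraries of both times overlapped. Untreated cells held 12.6 and 12.0 CPM of Cxcl1 and 16.7 and 18.8 CPM of Cxcl2. The interaction was -1.68 for Cxcl1 (SE 0.15, adjusted p = 2.63e-07 in limma) and -1.23 for Cxcl2 (SE 0.15, adjusted p = 1.02e-05).

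Ccl3, the gene of a monocyte attractant, had 44.2 and 38.1 CPM at 1 h and 34.8 and 33.0 CPM at 3 h with AmTARS, against 51.2 and 49.0 CPM at 1 h and 104 and 155 CPM at 3 h with Pam3CSK4. The AmTARS libraries were slightly lower at 3 h than at 1 h, and the Pam3CSK4 libraries were far higher. Its interaction was -1.6 (SE 0.16, adjusted p = 5.87e-07 in limma), while its AmTARS change of -0.27 did not pass (adjusted p = 0.302). Cxcl5 and Ccl2 had interactions of -1.36 and -1.25. Cxcl10, an interferon-inducible T cell attractant, was close to the threshold at -0.65 (SE 0.20, adjusted p = 0.0481 in limma). It did not pass in 11 of 25 other settings, where its adjusted p ranged from 0.0011 to 0.242 over all 25.

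Inflammatory cytokine genes followed the same direction with more exceptions. Of 22 on the list 17 were tested, and the interaction was negative in 8 and did not pass in 9. The share that passed was 47.1%, against 9.20% of all genes, and the median was -0.26 against 0.01 over all genes. Il1b, which encodes interleukin-1 beta, had 42.2 and 47.1 CPM at 1 h and 45.2 and 45.1 CPM at 3 h with AmTARS. Under Pam3CSK4 the gene had 59.9 and 58.8 CPM at 1 h and 206 and 332 CPM at 3 h, against 21.5 and 24.6 CPM untreated. The AmTARS libraries of both times overlapped, and the Pam3CSK4 libraries did not. The interaction was -2.11 (SE 0.18, adjusted p = 1.35e-07 in limma).

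Il6, a low-level cytokine gene in these cells, had 1.71 and 2.85 CPM at 1 h and 2.97 and 2.52 CPM at 3 h with AmTARS. In the Pam3CSK4 libraries it had 2.22 and 2.95 CPM at 1 h and 9.79 and 15.5 CPM at 3 h, against 1.66 and 1.95 CPM untreated. Only the Pam3CSK4 3 h libraries stood apart from the rest, with an interaction of -1.69 (SE 0.24, adjusted p = 6.6e-05 in limma). At such levels the added 1 CPM makes the log2 change smaller than the change in CPM. Il12a and Lif, for a subunit of interleukin-12 and for leukaemia inhibitory factor, had interactions of -1.41 and -1.19. Il12b, which encodes the partner subunit, was at -0.51 (adjusted p = 0.22 in limma) and did not pass. Il10, for an anti-inflammatory cytokine, was listed but fell under the mean of 1 CPM and was not tested.

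Tnf, the gene of tumour necrosis factor, was one of 7 genes that passed in opposite directions under the ligands. It had 64.0 and 71.7 CPM at 1 h and 49.0 and 49.1 CPM at 3 h with AmTARS. With Pam3CSK4 it had 165 and 165 CPM at 1 h and 186 and 228 CPM at 3 h, and untreated cells held 23.7 and 23.6 CPM. Between the times the level fell with AmTARS and rose with Pam3CSK4, and all treated libraries stayed above the untreated ones. The changes were -0.46 with AmTARS (SE 0.07, adjusted p = 0.00069 in limma) and 0.32 with Pam3CSK4 (SE 0.07, adjusted p = 0.00179). The interaction was -0.78 (SE 0.10, adjusted p = 2.14e-05 in limma).

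Genes that mark classically activated (M1) macrophages made the list with the most negative median, -1.05. Of 17 tested, the interaction was negative in 16, among them Il1b, Il6, Tnf and Cxcl10 of the lists above, and Cd86 did not pass. That is 94.1%, against 9.20% of all genes. All 17 rose between the times with Pam3CSK4. With AmTARS 10 rose and 1, Tnf, fell. Of 13 markers of alternatively activated (M2) macrophages, 2 had a negative interaction, Ccl22 and Msr1, and the median was 0.02. Those 2 are 15.4% of the list, against 9.20% of all genes. Arg1 and Mrc1, for arginase and the mannose receptor, did not pass at -0.23 (adjusted p = 0.25) and 0.01 (adjusted p = 0.957) in limma.

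Nos2, which encodes the inducible nitric oxide synthase, had 14.2 and 13.7 CPM at 1 h and 18.04 and 19.14 CPM at 3 h with AmTARS. With Pam3CSK4 it had 15.4 and 17.5 CPM at 1 h and 73.2 and 99.1 CPM at 3 h, against 16.6 and 17.2 CPM untreated. Its levels at 1 h were near the untreated ones with both ligands, so the ligands parted after 1 h. The interaction was -1.91 (SE 0.14, adjusted p = 2.23e-08 in limma).

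Irg1, whose product makes the antimicrobial metabolite itaconate, showed a clear rise with both ligands. It had 182 and 176 CPM at 1 h and 309 and 332 CPM at 3 h with AmTARS, against 198 and 186 CPM at 1 h and 882 and 1154 CPM at 3 h with Pam3CSK4. The untreated level of 179 CPM in both libraries was close to all 4 libraries at 1 h. The change of 0.84 was the largest with AmTARS among the 14 most negative interactions, and the Pam3CSK4 change was 2.39. The interaction was -1.55 (SE 0.11, adjusted p = 2.23e-08 in limma).

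Ptges, the gene of a prostaglandin E synthase, had 34.5 and 34.5 CPM at 1 h and 53.5 and 58.6 CPM at 3 h with AmTARS. The Pam3CSK4 libraries held 37.4 and 37.1 CPM at 1 h and 168 and 246 CPM at 3 h. It thus rose with both ligands, and the interaction was -1.73 (SE 0.15, adjusted p = 1.35e-07 in limma). Ptgs2, which encodes the cyclooxygenase that supplies its substrate, had an interaction of -1.0, with changes of -0.18 with AmTARS and 0.82 with Pam3CSK4. Of 16 genes of prostaglandins and lipid mediators, 3 were negative, 1 was positive and 12 did not pass, with a median of 0.06.

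Among surface receptors and ligands, Gpr84 and Hcar2, receptors for fatty acids and for hydroxybutyrate, had interactions of -1.62 (SE 0.15) and -1.57 (SE 0.17). Gpr84 had 11.2 and 11.7 CPM at 1 h and 19.3 and 18.9 CPM at 3 h with AmTARS, against 12.4 and 11.3 CPM at 1 h and 52.3 and 75.2 CPM at 3 h with Pam3CSK4. Adora2a, for an adenosine receptor, and Fpr1, for a receptor of formylated peptides, were at -1.34 and -1.2. Of 15 such metabolite and peptide receptors, 8 were negative, 2 were positive and 5 did not pass. The median of the 15 was -0.42, and 66.7% passed against 9.20% of all genes. P2rx7, for an ATP-gated channel, was one of the positive ones at 0.38. The other, P2ry6, for a receptor of nucleotides, was at 0.22 (adjusted p = 0.0431 in limma), and only 1 member was positive without any single treated library but Pam3CSK4 3 h replicate 2.

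Icosl, a T cell co-stimulator gene, had 5.62 and 4.89 CPM at 1 h and 5.69 and 5.09 CPM at 3 h with AmTARS. The Pam3CSK4 libraries held 5.11 and 4.96 CPM at 1 h and 17.3 and 21.4 CPM at 3 h. The AmTARS libraries of the times overlapped, and the interaction was -1.71 (SE 0.15, adjusted p = 1.49e-07 in limma). Of 15 genes of co-stimulation and adhesion, 8 were negative and 7 did not pass, so 53.3% passed against 9.20% of all genes. The median was -0.28, and Cd40 and Icam1 led at -1.43 and -1.08.

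The other 3 genes among the 14 most negative interactions have separate roles. Serpinb2, for a protease inhibitor, had 27.6 and 25.3 CPM at 1 h and 27.1 and 28.7 CPM at 3 h with AmTARS, against 23.5 and 24.2 CPM at 1 h and 83.3 and 104 CPM at 3 h with Pam3CSK4. Cd38, for an NAD-degrading surface enzyme, had 34.0 and 28.3 CPM at 1 h and 42.2 and 43.9 CPM at 3 h with AmTARS, against 27.9 and 26.3 CPM at 1 h and 102 and 125 CPM at 3 h with Pam3CSK4. At 1 h both genes were slightly higher with AmTARS than with Pam3CSK4, and at 3 h both were far lower. The interactions were -1.84 for Serpinb2 (SE 0.11, adjusted p = 4.52e-09 in limma) and -1.56 for Cd38 (SE 0.12, adjusted p = 2.34e-08). Rasgrp1, for an activator of Ras, had 1.25 and 1.33 CPM at 1 h and 2.53 and 2.52 CPM at 3 h with AmTARS, against 1.37 and 1.03 CPM at 1 h and 10.3 and 12.7 CPM at 3 h with Pam3CSK4. Its interaction was -1.88 (SE 0.17, adjusted p = 3.1e-07 in limma). Like Il6, Rasgrp1 reached the 5 CPM required for this ranking only with Pam3CSK4 at 3 h. Over 24 other settings its interaction ranged from -2.31 to -1.15, so its size is uncertain at these low levels.

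**Figure D2:**
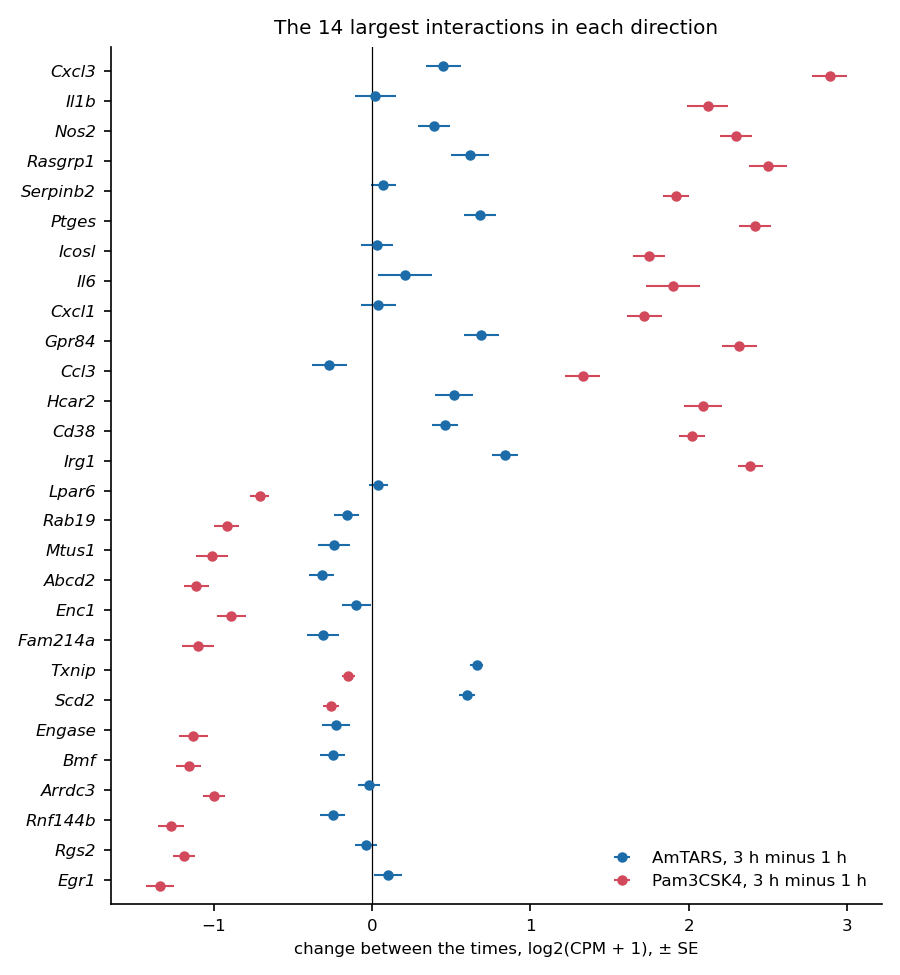
Change between 1 h and 3 h with AmTARS (blue) and with Pam3CSK4 (red), in log2(CPM + 1), for the 14 most negative interactions (top, from Cxcl3) and the 14 most positive (below, ending with Egr1). Points are differences of group means and bars are 1 standard error. The red points of the upper genes lie between 1.33 and 2.89 and the blue ones between -0.27 and 0.84.

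The genes of the receptor pair that senses the lipopeptide, Tlr2 and Tlr1, showed the interaction. Of 7 genes of Toll-like receptors and co-receptors, Tlr2, Tlr1, Cd14 and Tlr6 had a negative interaction. That is 57.1%, against 9.20% of all genes, and the median of all 7 was -0.35. Tlr4, Ly96 and Cd36 did not pass, at 0.03, 0.04 and -0.17. Tlr2 had 282 and 272 CPM at 1 h and 364 and 365 CPM at 3 h with AmTARS, against 292 and 290 CPM at 1 h and 760 and 896 CPM at 3 h with Pam3CSK4. It rose with both ligands, and at 1 h the levels were close to each other and to the untreated 245 and 249 CPM. The interaction was -1.11 (SE 0.08, adjusted p = 2.23e-08 in limma). Tlr1, the partner for triacylated ligands, was at -0.77 (SE 0.10), and Tlr6, the partner for diacylated ligands, at -0.35 (SE 0.11, adjusted p = 0.0434). Tlr6 did not pass in 11 of 25 other settings, where its adjusted p ranged from 0.0231 to 0.182 over all 25.

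Downstream of the receptors, the interaction did not pass in most adaptor and kinase genes, and the NF-kB subunit genes were negative together. Of 14 adaptor and kinase genes, Irak2 at -0.67 and Myd88 at -0.27 had a negative interaction and 12 did not pass, with a median of -0.10. The share that passed was 14.3%, against 9.20% of all genes. With Pam3CSK4 8 of the 14 rose between the times and 1 fell, and with AmTARS 1 rose and 1 fell. Myd88 did not pass in 6 of 25 other settings, among them those without AmTARS 1 h replicate 2, AmTARS 3 h replicate 1, Pam3CSK4 1 h replicate 3 or Pam3CSK4 3 h replicate 3. All 5 NF-kB subunit genes had a negative interaction, with a median of -0.80 and a range of -0.98 for Nfkb2 to -0.36 for Rela. Nfkb2 had 92.9 and 93.3 CPM at 1 h and 131 and 130 CPM at 3 h with AmTARS, against 91.4 and 91.4 CPM at 1 h and 233 and 276 CPM at 3 h with Pam3CSK4. The ligands did not separate this gene at 1 h, and they did at 3 h.

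On the list of feedback inhibitors of NF-kB and Toll-like receptor signalling, 11 of 18 genes were negative and 7 did not pass. The median of the 18 was -0.65, and 61.1% passed against 9.20% of all genes. The list also holds NF-kB genes that are not plain inhibitors, among them Nfkbiz. Nfkbie, Tnip1, Nfkbiz and Irak3 led at -1.14, -1.01, -0.91 and -0.86. Nfkbia, the gene of the NF-kB inhibitor that is degraded and made anew during signalling, had 215 and 212 CPM at 1 h and 188 and 177 CPM at 3 h with AmTARS. Under Pam3CSK4 its levels were 295 and 285 CPM at 1 h and 368 and 422 CPM at 3 h, against 118 and 120 CPM untreated. Like Tnf, it fell between the times with AmTARS, by 0.23 (SE 0.05, adjusted p = 0.0247 in limma), and rose with Pam3CSK4, by 0.44 (SE 0.05, adjusted p = 2.51e-06). The interaction was -0.67 (SE 0.08, adjusted p = 4.55e-06 in limma).

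Socs3, which encodes an inhibitor of cytokine receptor signalling, also went in opposite directions. It had 67.8 and 72.8 CPM at 1 h and 54.8 and 60.7 CPM at 3 h with AmTARS, against 123 and 119 CPM at 1 h and 165 and 194 CPM at 3 h with Pam3CSK4. The interaction was -0.84 (SE 0.10, adjusted p = 5.42e-06 in limma). Ppp1r10, for a subunit of a nuclear phosphatase complex, had changes of -0.25 with AmTARS and 0.17 with Pam3CSK4 and an interaction of -0.42 (SE 0.08, adjusted p = 0.00167 in limma). Of 10 inhibitors of cytokine signalling, Socs3 was negative, Pias3 was positive at 0.49 and 8 did not pass.

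**Figure D3:**
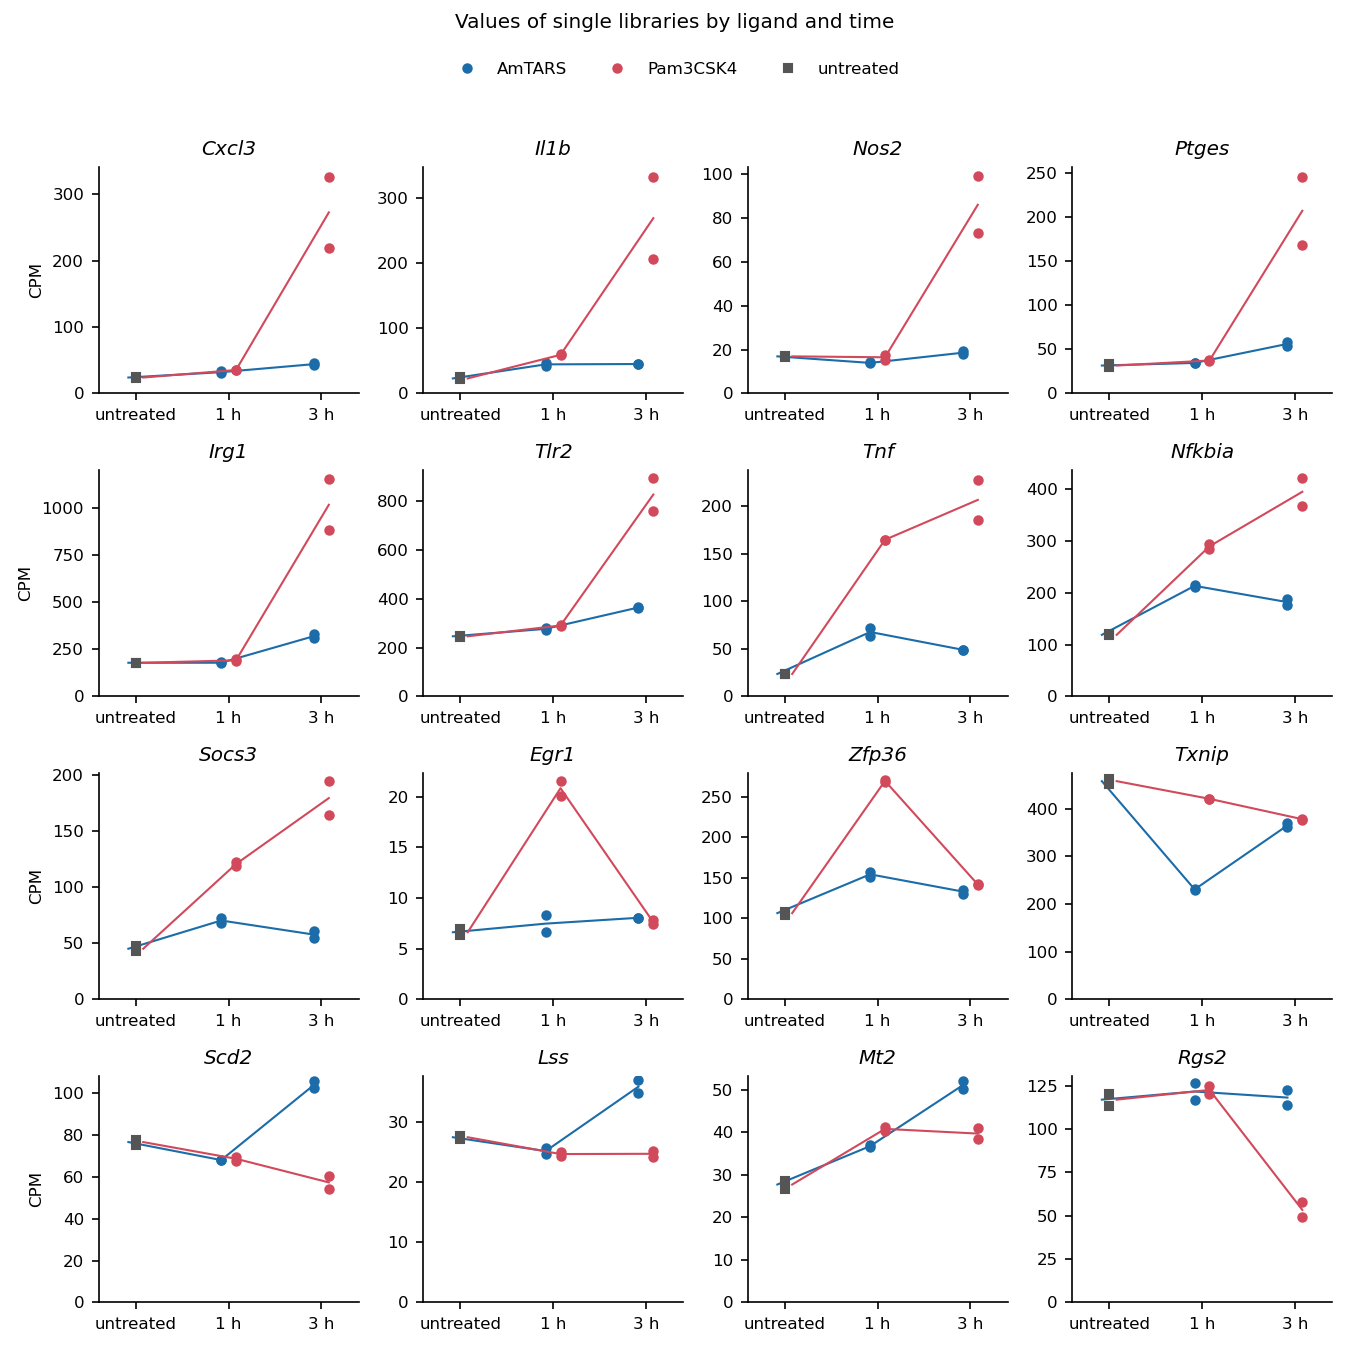
Levels in CPM (linear axis from 0) of 16 genes in single libraries of untreated cells and of cells at 1 h and 3 h with AmTARS (blue circles) or Pam3CSK4 (red circles), where lines join group means and squares are untreated libraries. In the genes from Cxcl3 to Tlr2 the red points rise at 3 h, and the blue ones rise less or stay level. In Egr1 and Zfp36 the red points peak at 1 h, and in Txnip the blue points are low at 1 h. In Scd2, Lss and Mt2 the blue points are high at 3 h.

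Promoter sequences are shown for 4 genes that stand for different courses: Cxcl3 and Irg1 parted between the ligands after 1 h, Nfkbia moved in opposite directions with a negative interaction, and Txnip, described below, did so with a positive one. The windows run from 250 bases before to 50 bases after the RefSeq gene start in build GRCm38.p6, 5′ to 3′ on the gene's strand. They are chr5:90785851-90786150 (plus strand) for Cxcl3, chr14:103046762-103047061 (plus strand) for Irg1, which RefSeq names Acod1, chr12:55492598-55492897 (minus strand) for Nfkbia and chr3:96557707-96558006 (plus strand) for Txnip. Capitals mark matches to GGNNNTTCC on either strand, a form of the NF-kB motif.
Cxcl3: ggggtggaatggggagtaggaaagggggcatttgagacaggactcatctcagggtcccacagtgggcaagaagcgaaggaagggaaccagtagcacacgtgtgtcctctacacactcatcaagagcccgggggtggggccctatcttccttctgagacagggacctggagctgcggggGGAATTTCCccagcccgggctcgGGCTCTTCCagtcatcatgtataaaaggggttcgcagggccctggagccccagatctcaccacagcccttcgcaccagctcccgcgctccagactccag
Irg1: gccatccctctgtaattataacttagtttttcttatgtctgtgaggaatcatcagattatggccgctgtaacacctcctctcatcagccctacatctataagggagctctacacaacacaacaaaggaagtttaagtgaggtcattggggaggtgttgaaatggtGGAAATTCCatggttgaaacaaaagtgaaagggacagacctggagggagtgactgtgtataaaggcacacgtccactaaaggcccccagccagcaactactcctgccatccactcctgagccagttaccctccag
Nfkbia: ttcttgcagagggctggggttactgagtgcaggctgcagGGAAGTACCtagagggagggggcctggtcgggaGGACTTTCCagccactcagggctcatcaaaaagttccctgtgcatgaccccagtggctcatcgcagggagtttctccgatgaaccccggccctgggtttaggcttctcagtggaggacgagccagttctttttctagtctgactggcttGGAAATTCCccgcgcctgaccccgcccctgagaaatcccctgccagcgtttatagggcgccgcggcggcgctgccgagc
Txnip: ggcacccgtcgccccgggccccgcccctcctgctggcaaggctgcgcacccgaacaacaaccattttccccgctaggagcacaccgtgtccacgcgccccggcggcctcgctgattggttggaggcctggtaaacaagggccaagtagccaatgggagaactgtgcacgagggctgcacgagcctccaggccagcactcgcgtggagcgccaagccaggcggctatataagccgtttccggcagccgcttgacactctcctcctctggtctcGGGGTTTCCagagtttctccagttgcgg
The Cxcl3 window held 2 matches, the Irg1 window 1, the Nfkbia window 3 and the Txnip window 1. Of the 11407 genes tested 9107 had a window, and 2037 of these (22.4%) held the motif. The share was 23.6% (122 of 516) for negative interactions, 30.9% (17 of 55) for negative ones of at least 2-fold, and 21.9% (68 of 311) for positive ones. A match is a run of letters and not evidence of binding.

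Positive interactions were led by genes that fell with Pam3CSK4 between 1 h and 3 h. Egr1, an immediate-early transcription factor gene, had 6.67 and 8.29 CPM at 1 h and 8.06 and 8.06 CPM at 3 h with AmTARS. With Pam3CSK4 it had 21.6 and 20.1 CPM at 1 h and 7.41 and 7.83 CPM at 3 h, against 6.34 and 6.92 CPM untreated. The Pam3CSK4 1 h libraries stood above all others, and at 3 h the ligands were close, with AmTARS slightly higher. The interaction was 1.44 (SE 0.13, adjusted p = 2.68e-07 in limma), the largest positive one among genes that met the naming rule.

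Other immediate-early genes shared this course in part. Of 24 tested, Egr1, Nr4a1, Fos, Ier2 and Btg2 had a positive interaction, Maff a negative one of -0.99, and 18 did not pass, with a median of 0.00. Without AmTARS 1 h replicate 2 the counts were 3 positive and 2 negative, and without Pam3CSK4 3 h replicate 2 they were 4 and 3. Egr1, Fos and Maff passed in all 25 other settings, while Btg2, at 0.24 (adjusted p = 0.0466 in limma), did not pass in 15 and Nr4a1 did not in 4. With Pam3CSK4, 11 of the 24 fell between the times and 5 rose, and with AmTARS 1 fell. Fos, for a subunit of the factor AP-1, had 65.7 and 69.9 CPM at 1 h and 74.7 and 76.4 CPM at 3 h with AmTARS, against 91.5 and 95.9 CPM at 1 h and 74.4 and 70.5 CPM at 3 h with Pam3CSK4. At 3 h the ligands' Fos levels were close, and the interaction was 0.52 (SE 0.08, adjusted p = 7.41e-05 in limma).

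Zfp36, whose product tristetraprolin destabilises cytokine mRNAs, fell with both ligands. It had 151 and 158 CPM at 1 h and 131 and 135 CPM at 3 h with AmTARS, against 268 and 271 CPM at 1 h and 142 and 141 CPM at 3 h with Pam3CSK4. Untreated cells held 108 and 104 CPM, so the higher level at 1 h with Pam3CSK4 was mostly gone at 3 h. The interaction was 0.71 (SE 0.06, adjusted p = 2.63e-07 in limma). Its relatives Zfp36l1 and Zfp36l2 were positive as well, at 0.48 and 0.45, while Zc3h12a, for an RNA-cleaving regulator of the same cytokine mRNAs, was negative at -0.67. Of the 9 mRNA decay genes tested, 3 were positive, 2 negative and 4 did not pass, so 55.6% passed against 9.20% of all genes. The negative count was 1 without AmTARS 1 h replicate 2, AmTARS 3 h replicate 1, AmTARS 3 h replicate 3, Pam3CSK4 1 h replicate 3 or Pam3CSK4 3 h replicate 2.

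In 57 of the 1049 genes the ligands were further apart at 1 h than at 3 h. Egr1 had an AmTARS minus Pam3CSK4 difference of -1.37 at 1 h and 0.07 at 3 h. For Txnip these were -0.86 and -0.05, for Zfp36 -0.80 and -0.09, for Fos -0.46 and 0.06, and for Csrnp1, another immediate-early gene, -0.41 and 0.06. In these 5 genes AmTARS stood below Pam3CSK4 at 1 h and close to it at 3 h, as it stood below at 1 h in 19 of the 57 genes. In the other 38 it stood above Pam3CSK4 at 1 h. Among these, Dpy19l4 had differences of 0.39 at 1 h and -0.11 at 3 h, and Il1rap, for a subunit of the interleukin-1 receptor, 0.33 and -0.18.

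Feedback genes of the MAP kinases were mostly negative where they passed. Of 17 tested, 6 were negative, 2 positive and 9 did not pass, so 47.1% passed against 9.20% of all genes. The median of the 17 was -0.10. Dusp16 and Spred1, inhibitors of JNK and ERK signalling, led the negative ones at -1.15 and -0.79. Dusp1, the early phosphatase gene, did not pass at 0.27 (adjusted p = 0.187 in limma). Over 25 other settings it ranged from 0.05 to 0.43, and whether it passed depended on which library was left out. Dusp6, an ERK phosphatase gene, was at 0.27 (adjusted p = 0.0239 in limma) and did not pass in 8 of 25 other settings. Leaving out single libraries moved the count of positive members both ways, with a rise without AmTARS 1 h replicate 3. Neither positive member passed without AmTARS 1 h replicate 2, AmTARS 3 h replicate 1 or Pam3CSK4 1 h replicate 1, and 1 did without AmTARS 3 h replicate 3 or Pam3CSK4 3 h replicate 2.

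After Egr1, the positive interactions of largest size were Rgs2, Rnf144b, Arrdc3 and Bmf. Rgs2, for an inhibitor of G protein signalling, had 117 and 127 CPM at 1 h and 122 and 114 CPM at 3 h with AmTARS, against 125 and 120 CPM at 1 h and 57.7 and 49.0 CPM at 3 h with Pam3CSK4. Untreated cells held 113 and 120 CPM, so only the Pam3CSK4 3 h libraries left that range clearly. The interaction was 1.15 (SE 0.09, adjusted p = 6.74e-08 in limma). Arrdc3, an arrestin-domain gene, had 34.0 and 38.2 CPM at 1 h and 35.7 and 35.2 CPM at 3 h with AmTARS, against 33.3 and 32.5 CPM at 1 h and 15.3 and 16.6 CPM at 3 h with Pam3CSK4. It had the same form as Rgs2, with an interaction of 0.98 (SE 0.09, adjusted p = 4.25e-07 in limma).

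Rnf144b, for a ubiquitin ligase, and Bmf, for a pro-apoptotic protein of the Bcl-2 family, had interactions of 1.02 (SE 0.11) and 0.91 (SE 0.12). Bmf had 32.1 and 32.9 CPM at 1 h and 27.9 and 26.3 CPM at 3 h with AmTARS, against 33.4 and 35.4 CPM at 1 h and 16.8 and 13.0 CPM at 3 h with Pam3CSK4. Bmf levels were lower at 3 h in both, with an AmTARS change of -0.25 that did not pass (adjusted p = 0.159 in limma) while the level fell by 1.16 with Pam3CSK4. Engase, Fam214a, Abcd2, Enc1, Mtus1, Rab19 and Lpar6 completed the 14 most positive, with interactions of 0.75 to 0.90. Of 20 apoptosis regulators, 3 were positive, 4 negative and 13 did not pass. Cflar and Birc3, for inhibitors of caspase activation, were at -0.85 and -0.68, and Bcl2a1a was at -1.07, with some doubt because its near-identical copies Bcl2a1b and Bcl2a1d can share its reads.

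A smaller set of positive interactions came from a rise with AmTARS. In 16 of the 398 positive genes the level rose between the times with AmTARS, and in 3 of these it fell with Pam3CSK4, in 2 it rose and in 11 the change did not pass. Scd2, Txnip, Mt2, Lss, Mt1 and Mx1 had the largest interactions of the 16, and 8 of the 16 were genes of cholesterol synthesis.

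Txnip, whose product limits glucose uptake and binds thioredoxin, had 230 and 232 CPM at 1 h and 369 and 361 CPM at 3 h with AmTARS. Under Pam3CSK4 its levels were 421 and 420 CPM at 1 h and 379 and 377 CPM at 3 h, against 463 and 452 CPM untreated. The AmTARS 1 h libraries stood far below all others, and at 3 h the AmTARS libraries were close below the Pam3CSK4 ones. Txnip rose with AmTARS by 0.66 (SE 0.04, adjusted p = 1.31e-08 in limma) and fell with Pam3CSK4 by 0.15 (SE 0.04, adjusted p = 0.00766). The interaction was 0.81 (SE 0.06, adjusted p = 2.23e-08 in limma).

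Scd2, a fatty acid desaturase gene, parted from an equal start. It had 67.9 and 68.2 CPM at 1 h and 102 and 106 CPM at 3 h with AmTARS, against 67.9 and 69.5 CPM at 1 h and 60.4 and 54.4 CPM at 3 h with Pam3CSK4. Untreated cells held 75.5 and 77.9 CPM, between the ligands' levels at 3 h. The changes were 0.60 with AmTARS (SE 0.05, adjusted p = 1.68e-06 in limma) and -0.26 with Pam3CSK4 (SE 0.05, adjusted p = 0.00103). The interaction was 0.86 (SE 0.08, adjusted p = 2.17e-07 in limma).

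Genes of cholesterol synthesis and uptake had the most positive median of the 32 lists, 0.30 against 0.01 over all genes. Of 19 tested, 11 had a positive interaction (57.9%, against 3.49% of all genes) and 8 did not pass. In a fit with a replicate block 4 were positive. Between the times 16 rose with AmTARS, and with Pam3CSK4 10 rose and 2 fell. Without single treated libraries the count of positive members was 7 to 9, and 7 was the count without Pam3CSK4 1 h replicate 1.

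Lss, for the enzyme that forms the sterol rings, had 25.7 and 24.7 CPM at 1 h and 34.8 and 37.1 CPM at 3 h with AmTARS, against 24.3 and 25.1 CPM at 1 h and 25.3 and 24.3 CPM at 3 h with Pam3CSK4. Only the AmTARS 3 h libraries stood clearly apart, with an interaction of 0.49 (SE 0.09, adjusted p = 0.000742 in limma). Sqle, for the squalene epoxidase that acts before Lss, rose with both ligands, with 45.5 and 44.0 CPM at 1 h and 66.7 and 68.2 CPM at 3 h with AmTARS, against 42.2 and 42.7 CPM at 1 h and 51.2 and 50.9 CPM at 3 h with Pam3CSK4. The Sqle interaction was 0.32 (SE 0.07, adjusted p = 0.00676 in limma). Mvk, Mvd and Dhcr7, of early and late steps of the pathway, were at 0.42, 0.41 and 0.38, and Mvk did not pass without Pam3CSK4 1 h replicate 1.

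Insig1, for a sensor of sterols, was among the members that did not pass, at 0.16 (adjusted p = 0.29 in limma). The list of sterol efflux and the nuclear receptor LXR holds 10 genes and is not made of exporters alone. On it 2 were positive, Scd2 and Abcg1, 2 negative, Abca1 and Nr1h3, and 6 did not pass. That is 40.0% that passed, against 9.20% of all genes. The exporter genes differed in direction, with Abca1 at -0.81 and Abcg1 at 0.39. Abca1 had 102 and 94.2 CPM at 1 h and 126 and 139 CPM at 3 h with AmTARS, against 83.9 and 92.7 CPM at 1 h and 215 and 205 CPM at 3 h with Pam3CSK4.

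The metallothionein genes Mt1 and Mt2, for metal-binding proteins, lie side by side on chromosome 8. Mt2 had 36.5 and 37.0 CPM at 1 h and 51.9 and 50.2 CPM at 3 h with AmTARS, against 40.4 and 41.2 CPM at 1 h and 38.4 and 40.9 CPM at 3 h with Pam3CSK4. Untreated cells held 26.8 and 28.6 CPM, below all treated libraries. The interactions were 0.50 for Mt2 (SE 0.08, adjusted p = 0.000294 in limma) and 0.49 for Mt1 (SE 0.09, adjusted p = 0.000757).

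Interferon response genes had a median near that of all genes, 0.06, and moved in both directions. Of 27 tested, 8 were positive, 2 negative and 17 did not pass, so 37.0% passed against 9.20% of all genes. Ifit3, Mx2 and Mx1, for antiviral proteins, were positive at 0.49, 0.48 and 0.47, and Gbp5 and Gbp2, for guanylate-binding proteins, negative at -0.94 and -0.58. Mx1 had 31.8 and 36.3 CPM at 1 h and 44.0 and 48.0 CPM at 3 h with AmTARS, against 40.8 and 34.99 CPM at 1 h and 36.0 and 37.0 CPM at 3 h with Pam3CSK4. The Pam3CSK4 libraries overlapped between the times and the AmTARS ones did not. The number of positive members was 4 without AmTARS 1 h replicate 2, without AmTARS 3 h replicate 3 or without Pam3CSK4 1 h replicate 1, and 11 without Pam3CSK4 1 h replicate 3. Mx2 did not pass in 8 of 25 other settings.

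Among lists of metabolism and stress, 6 of 16 genes of NRF2 targets and oxidative stress were negative and 10 did not pass. The median of the 16 was -0.02, and 37.5% passed against 9.20% of all genes. Gsr, at -0.24 (adjusted p = 0.0486 in limma), did not pass in 15 of 25 other settings, and Srxn1, at -0.35 (adjusted p = 0.0312), in 9. The negative count was 5 with a replicate block, and it was lower without most single treated libraries. Slc7a11, for a cystine importer, led at -1.40, and had 60.3 and 56.0 CPM at 1 h and 83.0 and 85.7 CPM at 3 h with AmTARS, against 57.0 and 58.9 CPM at 1 h and 199 and 251 CPM at 3 h with Pam3CSK4. It rose with both ligands, as did Sod2, for the mitochondrial superoxide dismutase, at -0.95. Of 22 genes of glycolysis and HIF-1, 4 were negative, 1 was positive and 17 did not pass, with Hif1a at -0.76 and the glucose transporter gene Slc2a1 at -0.67, and 7 were negative without Pam3CSK4 3 h replicate 2. Nlrp3 and Mefv, for inflammasome sensors, were at -1.12 and -1.15. The share that passed was 22.7% for glycolysis and HIF-1 and 55.6% for the inflammasome, against 9.20% of all genes. Of 9 inflammasome genes 4 were negative, 1 was positive and 4 did not pass. The positive one, Pycard, did not pass without AmTARS 3 h replicate 1.

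Several housekeeping lists, and the ATF4 stress list, held few or no genes that passed, 0 to 5.88% against 9.20% of all genes. At that share a list of this size would hold few such genes, so the counts do not set these lists apart. In limma, none of 24 cytosolic ribosomal protein genes and none of 23 genes of oxidative phosphorylation had an interaction at an adjusted p below 0.05, with medians of 0.09 and 0.07. Under voom in limma 0 passed as well, and at an unadjusted p below 0.05 there were 2 in either list. With Pam3CSK4 16 of the 24 ribosomal protein genes (66.7%) fell between the times, against 15.3% of all genes. In ribosome biogenesis 1 of 24 genes passed (Rrs1, -0.35), in cell cycle 1 of 24 (Mki67, -0.44), in the ATF4 stress response 1 of 17 (Mthfd2, -0.39) and in lysosome 1 of 19 (Tfeb, 0.34). Tfeb passed in all 25 other settings, while Rrs1 did not pass in 7, Mki67 in 6 and Mthfd2 in 6 of them. Mthfd2 was lost without AmTARS 1 h replicate 3, AmTARS 3 h replicate 1 or Pam3CSK4 3 h replicate 3, and the ATF4 list had 2 negative members without AmTARS 3 h replicate 3 and 3 without Pam3CSK4 3 h replicate 2. The lists that follow were above the 9.20% that passed among all genes. Of 9 MHC class II genes H2-DMa passed at 0.26 (11.1%), and of 11 SMAD and TGF-beta feedback genes Skil (-0.38) and Ski (0.29) did (18.2%). H2-DMa did not pass in 9 of 25 other settings and Ski in 4, each with single libraries left out among them. Of 5 arrestin-domain genes 60.0% passed, and Txnip and Arrdc3 were positive. Arrdc4 was at the threshold with -0.28 (adjusted p = 0.0496 in limma) and did not pass in 16 of 25 other settings. Over the 32 lists, 156 of 492 different members passed, against 9.20% of all genes, and 2 lists had no member that passed. The lists were written with earlier results of these data known, so their higher share is not a test of the lists.

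**Figure D4:**
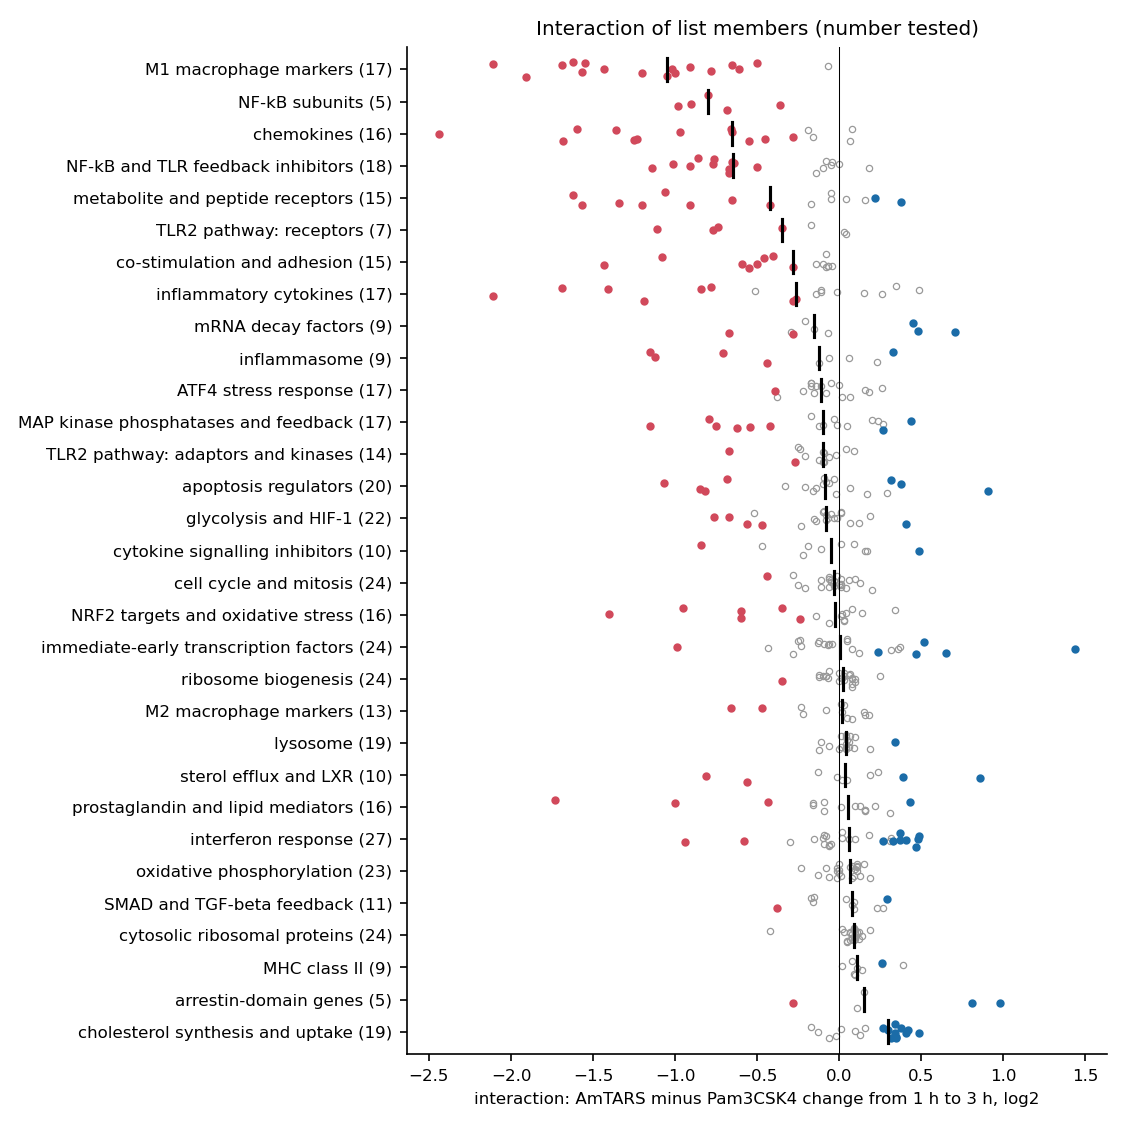
Interaction of each tested member of the gene lists described, in log2, with the number tested in parentheses and the black bar at the list's median. Filled points passed (red negative, blue positive) and open points did not. M1 macrophage markers sit at the top with a median of -1.05 and cholesterol synthesis and uptake at the bottom with a median of 0.30.

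The Pam3CSK4 3 h libraries differed more from each other than those of any other group, and replicate 3 went further. In 516 of the 651 negative genes (79.3%) and 321 of the 398 positive ones (80.7%), replicate 3 was further from the Pam3CSK4 1 h mean than replicate 2 was. Over all genes tested this held for 6443 of 11407 (56.5%). Without replicate 2 of that group 1333 genes passed, and without replicate 3, 774 did. The 28 largest interactions were chosen by p, size and separation in these same libraries. Their values without either replicate are thus a description and not a test. With a single library left, the group adds nothing to the estimated spread. Cxcl3 was at -2.72 without replicate 2 and at -2.15 without replicate 3, Il1b at -2.45 and -1.76, Nos2 at -2.13 and -1.69, Tnf at -0.92 and -0.63, and Egr1 at 1.41 and 1.48.

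Transcript length moved weakly with the interaction, with a Spearman correlation of -0.163 over 11366 genes as deposited and -0.014 after correction for length and GC content. As deposited, length correlated at 0.201 with the AmTARS change and 0.245 with the Pam3CSK4 change. The ligand difference was at 0.316 at 1 h and -0.01 at 3 h. After correction these were 0.003, 0.015, -0.008 and -0.029. Whether length bears on the 38 of 57 genes above, with AmTARS higher at 1 h, was not tested. After that correction 1378 genes passed, 996 of them among the 1049 and in the same direction. The counts in both directions were then the same as before in 16 of 32 lists, among them chemokines with 12 negative, M1 markers with 16 negative and cholesterol genes with 11 positive. In the other 16 a count differed. After the correction the ATF4 list had 4 negative members against 1 as deposited, the immediate-early list 3 against 1, and the lists of glycolysis and of apoptosis regulators 6 against 4 each. Interferon genes were positive in 10 after it and in 8 as deposited.

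Markers of other cell types were looked for as well. The summed level of 7 listed neutrophil markers was 1634.6 to 1721.0 CPM with AmTARS and 1653.8 to 2119.5 CPM with Pam3CSK4, against 1238.1 to 1320.2 CPM untreated, and 0 of the 7 had an interaction that passed in limma (1 at an unadjusted p below 0.05, 0 under voom). The dendritic cell markers Flt3 and Zbtb46 were not among the listed genes, and the 3 that were listed summed to 238.4 to 247.0 CPM with AmTARS and 247.8 to 261.4 CPM with Pam3CSK4. The 6 fibroblast markers summed to 1340.4 to 1497.3 CPM with AmTARS and 1353.8 to 1564.4 CPM with Pam3CSK4, with 0 interactions that passed in limma (0 at an unadjusted p below 0.05, 0 under voom). Of all markers, Adgre1 (-0.32), Mertk (0.40) and Cd14 (-0.74) of macrophages, Ccr7 (-0.41) of dendritic cells, Hdc (-0.76) of mast cells and basophils and Ccr3 (-0.71) of eosinophils passed. Ccr7 did not pass in 12, Mertk in 9 and Hdc in 2 of 25 other settings, and Ccr3 did not in 5 of 24. As 9.20% of all genes passed, lists this short can hold none, so a count of 0 sets no cell type apart. The part of other cell types in the result was not tested.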

How the data were processed

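For 10 poly-A RNA libraries the authors deposited log2(CPM + 1) values of 11617 gene symbols in 1 table. Per the submitters' processing notes, STAR 2.5.1, build mm10 and R 3.3.0 were used. How reads were counted, annotated and scaled is not given in the sources used here. With 1 factor per library, 100% of the values became whole reads to within 0.1 read, so depth is known. Every listed gene had at least 3 reads in each library, which leaves out genes silent in any library.

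Genes that averaged 1 CPM or more were fitted with limma 3.58.1 in R 4.3.3, with 1 mean for each of 5 groups, an intensity trend and Benjamini-Hochberg adjustment over all 11407 genes, and passed at an adjusted p below 0.05. Residual and prior degrees of freedom came to 5 and 14.7. SE is the moderated standard error and shares 1 spread over the groups. On the log2(CPM + 1) scale changes of low genes are understated. The calculation was tested on simulated data. Motif matches and figures used Python 3.11.15 and matplotlib 3.10.9, and gene positions, lengths and GC content came from GENCODE M21.

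Named were the 14 largest interactions in each direction with at least 5 CPM in the highest treated group and separated libraries (predicted genes left out), genes with opposite changes, 19 fixed genes, and up to 4 leading members of each of 32 lists. Ccl2, P2rx7, Birc3, Bcl2a1b, Cd86, Rela, Btg2, Ier2, Csrnp1, Dusp6, Insig1, Sqle, Mt2 and Mx1 were named after their values were seen. So were P2ry6, Pycard, Dpy19l4, Il1rap, Gsr, Srxn1, the cell markers and the genes under 1 CPM. Members, lists and rule were chosen with earlier results of these data known. Some genes and 1 list are not reported here. Alternatives were other filters, pseudocounts, scalings, spread estimates, voom on the recovered reads, a length and GC correction with natural splines of 5 degrees of freedom, a replicate block and leaving out each library.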

Additional observations from a re-analysis of the deposited data

Results flagged for a closer look

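In 7 genes the change between 1 h and 3 h passed in opposite directions under the ligands, and the test of the difference between these changes passed as well. The interaction on the log2 scale was -0.78 for Tnf, -0.84 for Socs3, -0.67 for Nfkbia and -0.42 for Ppp1r10, which fell between the times with AmTARS and rose with Pam3CSK4. It was 0.86 for Scd2, 0.81 for Txnip and 0.49 for Mt1, which rose between the times with AmTARS and fell with Pam3CSK4. Each of the 1049 genes with an interaction that passed differs between the ligands in this sense, and these 7 are singled out because the signs of the separate changes differ and both passed. With 2 libraries per group, no single library was tested for standing apart within its group.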

How the results depend on the processing

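The interaction count of 1049 stayed within 1.5 times under other filters, pseudocounts, median and quantile scaling, robust spread, group weights, voom, the 8 treated libraries alone and the length and GC correction, with a range of 954 to 1378 there. It was 942 with that correction and the replicate block together, 672 with the replicate block, 680 without the intensity trend and 284 at 1.5-fold. Leaving out single libraries gave 675 to 1333. No gene passed with the opposite sign in any setting. The AmTARS count of 271 was 63 without the intensity trend, 466 after the length and GC correction and 20 at 1.5-fold, and 89 to 381 without single libraries. The Pam3CSK4 count of 3597 was 470 at 1.5-fold and 2381 to 3490 without single libraries. The cause of these shifts was not tested, except that a fold threshold can only remove genes.

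The replicate numbers are shared labels whose meaning is not given, and deviations of the groups correlated at -0.21 to 0.20, so they were not taken as pairs. With the replicate block, 595 of the 672 genes were among the 1049, 4 cholesterol genes, 2 interferon genes and 2 immediate-early genes were positive, neither positive MAP kinase feedback gene passed, and 4 of 5 NF-kB subunit genes were negative. Among genes that did not pass with the block were Mt1 (adjusted p = 0.095 in limma), Ppp1r10 (0.152), Rel (0.152), Spred2 (0.166), Nr4a1 (0.173), Ifit3 (0.0824), Mx2 (0.194), Mvk (0.219), Myd88 (0.121), Tlr6 (0.182), H2-DMa (0.356), Arrdc4 (0.0753), Rrs1 (0.0786), Mki67 (0.218), Mthfd2 (0.11) and Nlrc4 (0.0529). Of 112 named genes that passed, 91 passed in every other setting that tested them (25, or 24 for Rasgrp1, Il6 and Il12a, which a minimum of 5 CPM leaves out) and 0 reversed. Scaling moved the median interaction of all genes from 0.01 to at most 0.018. With 2 libraries per group, changes of low genes such as Il6 and Il12b are the least certain.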

Other observations

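Among 210 listed genes under the mean of 1 CPM, 4 had an interaction that passed in limma when all genes were fitted. Csf3, for the granulocyte growth factor, was at -1.57 on the log2 scale (adjusted p = 0.00125, mean 0.775 CPM). Has1, for a hyaluronan synthase, was at -1.13 (adjusted p = 0.000975 in limma, mean 0.505 CPM). Ereg, for the growth factor epiregulin, was at -0.87 (adjusted p = 0.0191 in limma, mean 0.733 CPM), and Steap4, for a metal reductase, at -0.64 (adjusted p = 0.0418 in limma, mean 0.729 CPM). At these levels the values rest on few reads.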
